A study of Homo sapiens with 8 samples.

Results

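The endoplasmic reticulum (ER) chaperones and unfolded protein response genes were examined in ribosome profiling libraries of METTL5-WT and METTL5-KO cells. They are the 10 genes HSPA5, HSP90B1, PDIA4, HYOU1, SDF2L1, DNAJB9, CALR, CANX, HERPUD1 and XBP1, matched by gene name among the 11244 genes of the translation efficiency table, and all 10 were found there. METTL5 is the enzyme that places an N6-methyladenosine mark on 18S ribosomal RNA. The cells were labelled HepG2, an established human liver cancer line, with METTL5 either intact (METTL5-WT) or disrupted with CRISPR-Cas9 (METTL5-KO). Per the labels the guides were meant to remove exons 2 to 3. All cells, of either genotype, were exposed to cycloheximide at 100 µg/ml for 7 min, which holds ribosomes in place on the message. From each lysate a part was set aside as input RNA, and nuclease digestion of the remainder left ribosome-protected fragments (RPF). There were 8 libraries in 4 groups, with 2 replicates of input and of RPF for each genotype. The authors describe HepG2 lines of both genotypes as grown from single clones. The clone behind each replicate is not stated, so that clone and genotype cannot be told apart. Since nothing says that replicates came from separate cultures, p-values measure only the spread between these samples, which may be technical.

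Proteins that enter the secretory pathway are folded in the ER by chaperones, and unfolded protein there activates the sensors IRE1 (ERN1), PERK (EIF2AK3) and ATF6. IRE1 removes a short intron from the XBP1 message, ATF6 is released as a transcription factor, and PERK phosphorylates eIF2 alpha, which lowers initiation and favours ATF4. XBP1 and ATF6 then raise transcription of chaperone genes, and liver cells, which secrete plasma proteins, are a classical setting of this response.

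The libraries did not carry the defining RNAs of liver cells. Of 10 liver markers, 4 had 0 counts in every input library (AHSG, FGB, SERPINA1 and TTR), 8 had at most 3 counts in any library, and none was in the translation efficiency table. Their summed counts ran from 4 to 6 in METTL5-WT and from 6 to 12 in METTL5-KO, with ALB at 0, 0, 0 and 1. A fibroblast list summed to between 3727 and 3914 counts in METTL5-WT and between 3379 and 4372 in METTL5-KO, nearly all from COL3A1, COL1A1, DCN and PDGFRB, while COL1A2, THY1 and PDGFRA had at most 1. A leukocyte list summed to between 0 and 4 counts in METTL5-WT and to 19 in both METTL5-KO libraries. The description of these cells as a secretory liver line was therefore not borne out by these markers, and the part of cell identity in the results below was not tested. The targeted gene followed its labels: METTL5 had 490 and 542 input counts in METTL5-WT against 208 and 151 in METTL5-KO, and 158 and 226 against 41 and 21 RPF reads. Input libraries held between 10710226 and 15307257 counts. RPF depth was 3970779 and 4592443 reads for METTL5-WT against 8626705 and 9255921 for METTL5-KO, so that METTL5-WT footprints were the shallowest.

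The promoters of these genes are shown because they carry the sites through which ATF6 and XBP1 are known to act. In the RefSeq promoter table (GRCh38.p14, from 250 bases before to 50 bases after each start site) all 10 genes matched, with 15 promoters. The ER stress response element (ERSE), searched as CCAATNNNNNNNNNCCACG on both strands, is a site for ATF6 beside the factor NF-Y. It was held by 5 of the 10 genes, against 0.0916% of 27305 genes. The related ERSE-II, searched as ATTGGNCCACG on both strands, was held by 3 others, against 0.0696% of genes. The 10 genes were chosen as known members of the response, so these counts are a description and not a test. Either element was present in 8 of 10 genes and in 44 of 27305 genes in the table. Sequences below run 5′ to 3′ on the strand of the gene, and capitals mark the fixed letters of the element or of its reverse complement.
HSPA5, minus strand, chr9:125241386-125241414, ERSE: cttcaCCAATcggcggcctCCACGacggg
HSP90B1, plus strand, chr12:103930211-103930239, ERSE: cctgaCCAATcggaaggagCCACGcttcg
HSP90B1, plus strand, chr12:103930316-103930344, reversed ERSE: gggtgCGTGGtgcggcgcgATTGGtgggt
XBP1, minus strand, chr22:28800598-28800626, ERSE: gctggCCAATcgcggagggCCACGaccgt
CALR, plus strand, chr19:12938379-12938407, reversed ERSE: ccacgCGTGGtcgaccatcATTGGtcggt
CANX, plus strand, chr5:179698773-179698801, ERSE: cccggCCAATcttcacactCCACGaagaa
HERPUD1, plus strand, chr16:56932020-56932040, ERSE-II: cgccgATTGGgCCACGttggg
SDF2L1, plus strand, chr22:21642109-21642129, reversed ERSE-II: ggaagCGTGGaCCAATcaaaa
HYOU1, minus strand, chr11:119057375-119057395, reversed ERSE-II: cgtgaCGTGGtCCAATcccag
HYOU1, minus strand, chr11:119057269-119057289, reversed ERSE-II: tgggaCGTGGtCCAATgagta

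HSP90B1 and HYOU1 each held 2 copies. The unfolded protein response element TGACGTGG, searched on both strands, was present in HYOU1 among the 10 genes and in 0.927% of all genes. In HYOU1 it overlapped the ERSE-II farther from the start site. None of the 3 motifs was found in PDIA4 or DNAJB9, which says only that these letters are not in these windows.

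The XBP1 message carries the intron that IRE1 removes. The annotation (GENCODE 44, hg38) places it at chr22:28796128-28796153 on the minus strand, with a length of 26 bases. The intron is printed in capitals as annotated, with 10 bases on either side. Its removal changes the reading frame to that of the active factor. The letters GCAGCA open the marked stretch and the same letters follow it, so a stretch shifted along within them leaves the same message when removed. The annotation therefore does not fix the exact cut sites of IRE1.
XBP1 intron: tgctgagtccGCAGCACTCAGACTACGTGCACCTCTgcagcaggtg

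Counts were summed per gene, so the spliced and unspliced forms of XBP1 cannot be told apart in these tables, and XBP1 values below give no measure of IRE1 activity.

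The question put to these genes was whether the ER stress programme differs between METTL5-KO and METTL5-WT. In input RNA, 6 of the 10 genes were lower in METTL5-KO and none was higher (edgeR, quasi-likelihood test, Benjamini-Hochberg adjusted p under 0.05), where 10.6% of 14054 tested genes were lower. The median log2 fold change was -0.37 over the 10 genes and -0.0043 over all genes tested. In RPF, 2 of 10 were lower by limma, where 10.7% of genes were lower, and 4 of 10 by edgeR on the recovered reads, where 13.2% were. In translation efficiency (TE, RPF relative to input of the same genotype) none of the 10 was called by either test. By limma 9 of 10 TE estimates were above 0, where 5818 of 11240 genes were. HSPA5 and PDIA4 were lower in METTL5-KO in input and in footprints. In such bulk lysates, fewer cells that express a gene and less RNA per cell cannot be told apart.

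**Figure D1:**
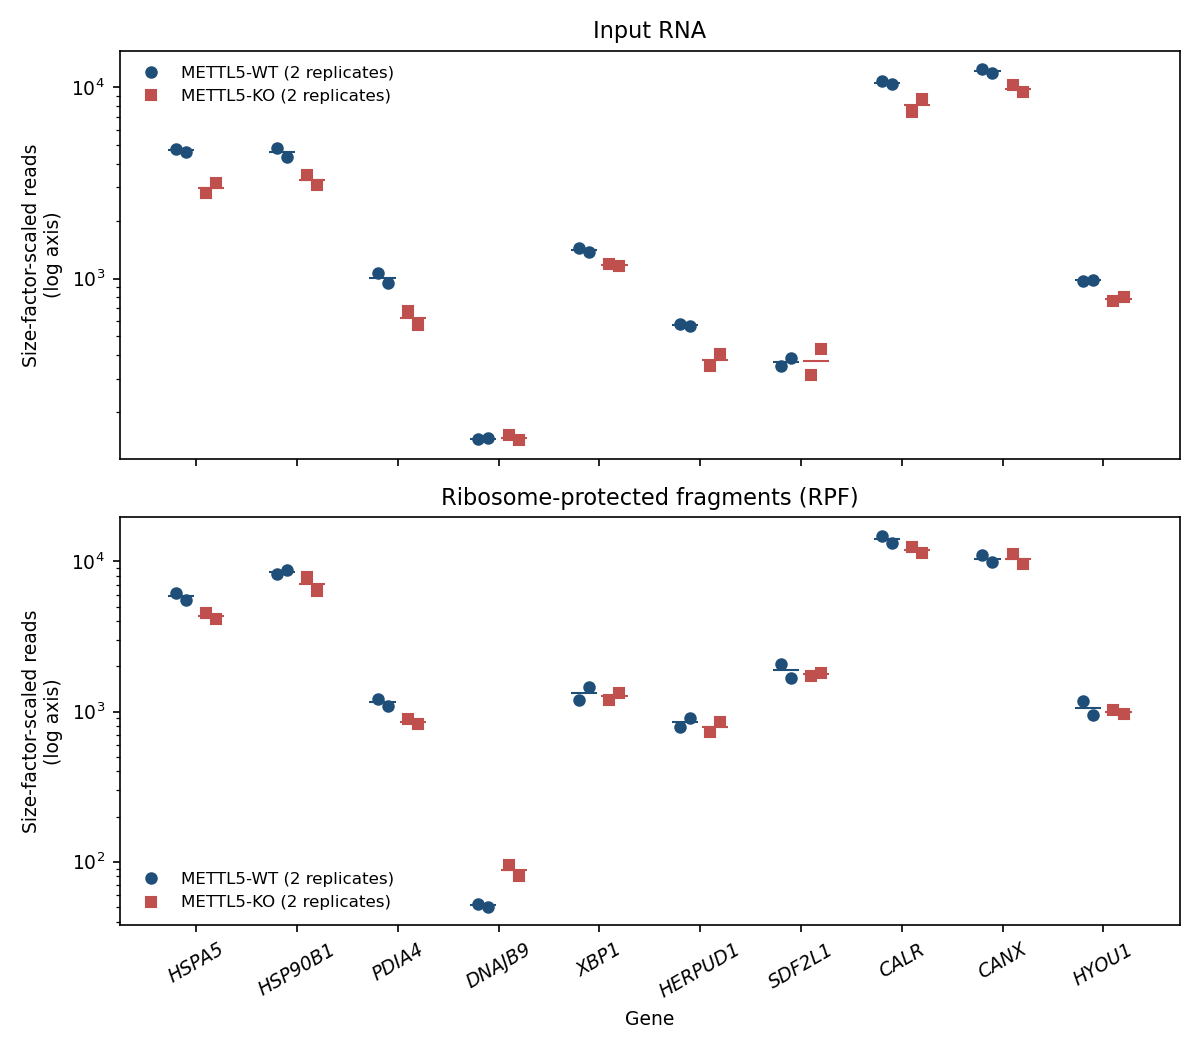
Values of the 10 genes in every library, as reads scaled by the size factor of the library on a log axis, with input RNA above and RPF below. Circles are METTL5-WT, squares are METTL5-KO and bars are means of 2 replicates. METTL5-KO input lies below METTL5-WT in 8 of 10 genes, all but DNAJB9 and SDF2L1.

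HSPA5 (ENSG00000044574, chr9:125234853-125241343, minus strand, hg38) encodes BiP, the main Hsp70 chaperone of the ER lumen, which also holds the sensors inactive. HSPA5 input stood at 4769 and 4609 in METTL5-WT against 2806 and 3183 in METTL5-KO, in reads scaled by size factor as in all values that follow. Footprints of HSPA5 stood at 6189 and 5515 in METTL5-WT against 4545 and 4111 in METTL5-KO. The groups did not overlap in either library type. The log2 change was -0.66 ± 0.12 (SE, adjusted p = 0.00019 by edgeR) in input and -0.43 ± 0.10 (limma adjusted p = 0.0035) in RPF. Its TE estimate was 0.21 with a 95% interval from -0.10 to 0.53, and its log2 TE was 0.38 and 0.26 in METTL5-WT against 0.70 and 0.37 in METTL5-KO.

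HSP90B1 (ENSG00000166598, chr12:103930107-103953645, plus strand, hg38) encodes GRP94, the Hsp90 chaperone of the ER. HSP90B1 input stood at 4847 and 4317 in METTL5-WT against 3477 and 3084 in METTL5-KO, with a log2 change of -0.50 ± 0.12 (SE, adjusted p = 0.0034 by edgeR). Footprints stood at 8172 and 8774 in METTL5-WT against 7839 and 6329 in METTL5-KO. Both METTL5-KO values were below both METTL5-WT values in input and in RPF, but the RPF gap was small beside the spread within METTL5-KO. The RPF change of -0.27 ± 0.10 was not called by limma (adjusted p = 0.076) and was called by edgeR on recovered reads (adjusted p = 0.043).

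PDIA4 (ENSG00000155660, chr7:149003062-149028662, minus strand, hg38) encodes a disulfide isomerase of the ER lumen and held none of the searched promoter elements. Its input values were 1067 and 952 in METTL5-WT against 678 and 574 in METTL5-KO. Its RPF values were 1204 and 1093 in METTL5-WT against 888 and 821 in METTL5-KO. The groups were apart in both library types, with log2 fold changes of -0.70 ± 0.12 (SE, adjusted p = 0.00018 by edgeR) in input and -0.43 ± 0.11 (limma adjusted p = 0.012) in RPF. The input change was the lowest of the 10 genes.

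HYOU1 (ENSG00000149428, chr11:119044188-119057227, minus strand, hg38) encodes GRP170, a nucleotide exchange factor for BiP. Its input values were 975 and 984 in METTL5-WT against 767 and 803 in METTL5-KO, and its log2 change was -0.33 ± 0.12 (SE, adjusted p = 0.040 by edgeR). DESeq2 on the same counts gave an adjusted p of 0.053, so that this call lay at the threshold. Its RPF values overlapped, at 1171 and 949 against 1029 and 963. SDF2L1 (ENSG00000128228, chr22:21642302-21644299, plus strand, hg38) encodes a component of the BiP and ERdj3 complex. SDF2L1 input stood at 350 and 387 in METTL5-WT against 314 and 430 in METTL5-KO, so that the METTL5-KO pair spanned the METTL5-WT pair. Footprints stood at 2083 and 1677 against 1731 and 1797, which also overlapped.

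DNAJB9 (ENSG00000128590, chr7:108569867-108574850, plus strand, hg38) encodes ERdj4, a J-domain partner of BiP that represses IRE1, and was the gene with the fewest reads. DNAJB9 input stood at 144 and 146 in METTL5-WT against 153 and 143 in METTL5-KO. Footprints stood at 52.3 and 50.1 in METTL5-WT, from 22 and 25 reads, and 95.3 and 80.3 in METTL5-KO, from 79 and 72 reads. Footprints thus did not overlap and lay in the direction opposite to HSPA5, while input did overlap. The RPF log2 fold change of 0.76 ± 0.34 (SE) was not called (limma adjusted p = 0.12, edgeR on recovered reads 0.12), and its 95% interval ran from 0.037 to 1.49. Of 13 alternatives that left out no library, 1 called it, a limma model of all 8 libraries (adjusted p = 0.022). That model pools the spread of input libraries with that of RPF libraries.

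CALR (ENSG00000179218, chr19:12938578-12944489, plus strand, hg38) and CANX (ENSG00000127022, chr5:179678628-179731641, plus strand, hg38) encode calreticulin and calnexin, the lectin chaperones that bind glycoproteins during folding. CALR input values were 10807 and 10412 in METTL5-WT against 7448 and 8749 in METTL5-KO, with a log2 change of -0.40 ± 0.12 (SE, adjusted p = 0.016 by edgeR). CALR RPF values were 14817 and 13242 against 12445 and 11378. CALR was thus lower in every METTL5-KO library, with an RPF change of -0.24 ± 0.10 that was not called by limma (adjusted p = 0.088) and was called by edgeR on recovered reads (adjusted p = 0.042). CANX input values were 12441 and 11912 in METTL5-WT against 10325 and 9413 in METTL5-KO. The CANX input change of -0.32 ± 0.12 (SE) lay just outside the threshold (edgeR adjusted p = 0.051), and DESeq2 gave 0.024. CANX RPF values were 10961 and 9837 against 11238 and 9626, almost the same range, with a log2 fold change of 0.0024 and a 95% interval from -0.21 to 0.21.

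HERPUD1 (ENSG00000051108, chr16:56932142-56944864, plus strand, hg38) encodes HERP, a scaffold of ER-associated degradation. Its input values were 580 and 564 in METTL5-WT against 349 and 402 in METTL5-KO, with a log2 change of -0.62 ± 0.13 (SE, adjusted p = 0.00094 by edgeR). HERPUD1 footprints stood at 791 and 910 against 726 and 845, which overlapped. The gap in input was therefore not matched by a called gap in footprints, and its TE estimate of 0.49 ± 0.18 (SE) did not pass the threshold (limma adjusted p = 0.12). XBP1 (ENSG00000100219, chr22:28794555-28800597, minus strand, hg38) encodes the transcription factor of the IRE1 branch. XBP1 input stood at 1450 and 1381 in METTL5-WT against 1198 and 1162 in METTL5-KO. These groups were apart, with a log2 fold change of -0.28 ± 0.11 (SE) that was not called (edgeR adjusted p = 0.085), although limma with the GC trend removed gave -0.35 and an adjusted p of 0.0028. Its RPF values overlapped, at 1200 and 1462 against 1201 and 1332.

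**Figure D2:**
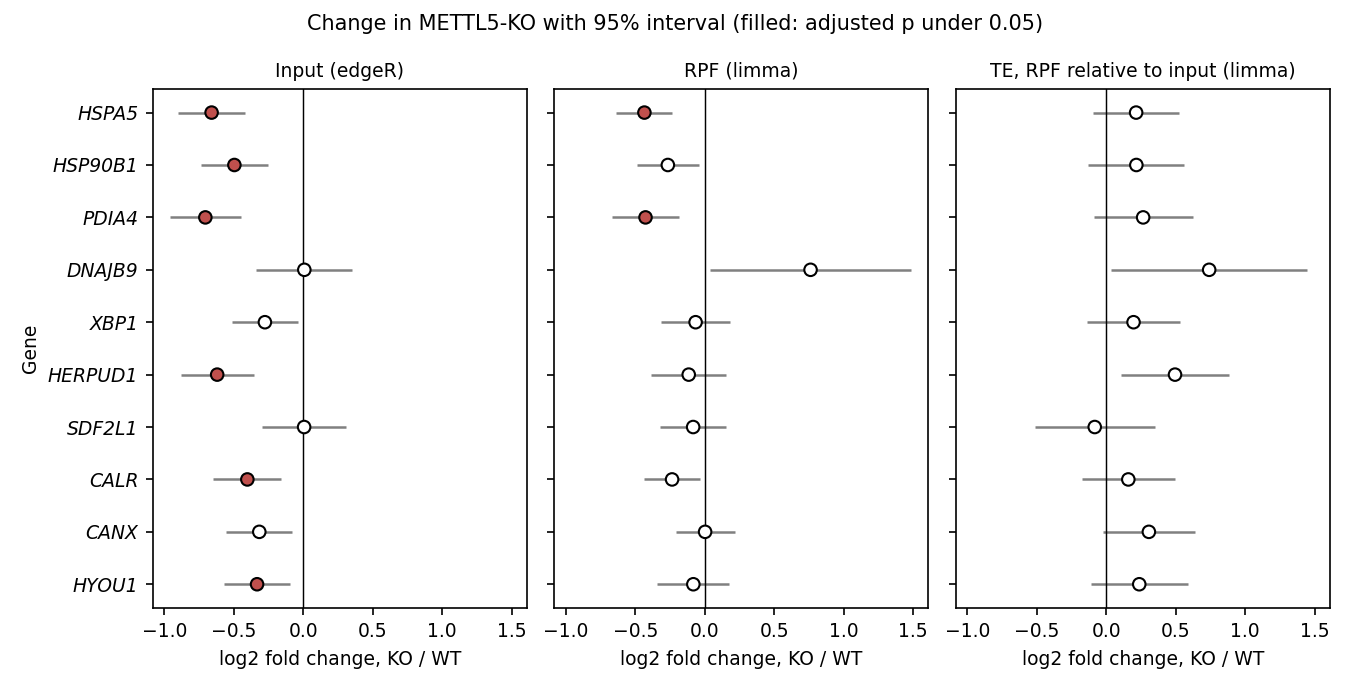
Log2 fold changes of METTL5-KO over METTL5-WT for the 10 genes in input, RPF and TE, with lines for 95% intervals and filled points for adjusted p under 0.05. Input has 6 filled points, RPF has 2 and TE has 0, and most TE estimates lie to the right of 0 with intervals that cover it.

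Both METTL5-KO libraries were below both METTL5-WT libraries in 8 of 10 genes in input, where 31.4% of the 11244 genes showed this. The same held for 4 of 10 in RPF (HSPA5, HSP90B1, PDIA4 and CALR), where 29.0% did. The shares that follow are of total reads, without size factors, and this lowers METTL5-KO footprints beside the scaled values above. By edgeR on recovered reads, the RPF change of HSPA5 was -0.46 with TMM scaling and -0.59 with total reads alone. That of CANX was -0.023 and -0.15. The reads of the 10 genes together made up 0.511% ± 0.018 (SD, n = 2) of input reads in METTL5-WT, compared with 0.386% ± 0.0018 in METTL5-KO (SD, n = 2). In RPF they made up 0.483% ± 0.016 in METTL5-WT and 0.381% ± 0.028 in METTL5-KO (SD, n = 2). The METTL5-KO shares were 0.755 and 0.789 of the METTL5-WT shares, and each METTL5-KO library was below each METTL5-WT library. CALR, CANX, HSPA5 and HSP90B1 carried most of these reads, so the shares follow them. The fibroblast list moved the same way, over the 5 markers in the table, from 0.0372% ± 0.00019 of input reads in METTL5-WT to 0.0294% ± 0.0014 in METTL5-KO, and from 0.0738% ± 0.0021 to 0.0502% ± 0.00034 of RPF reads (SD, n = 2). Neither pair of groups overlapped. Within the fibroblast list COL3A1 and PDGFRB were called lower and COL1A1 higher in input by edgeR. In RPF limma called COL3A1 lower and DCN higher. The part of this list in the shares of the 10 genes was not tested.

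TE was compared per lysate, as log2 of RPF over input. Both METTL5-KO lysates were above both METTL5-WT lysates in 5 of 10 genes (HSP90B1, PDIA4, DNAJB9, HERPUD1 and CANX), where 28.2% of all genes showed this. None of the 10 was called by limma, where 4.79% of genes were called in either direction, or by edgeR on recovered reads, where 6.95% were, and DESeq2 called 0 as well. At an unadjusted p under 0.05, limma and edgeR each had 2 of 10 (DNAJB9 and HERPUD1), and DESeq2 had 2 (HERPUD1 and CANX). Over all genes 22.6%, 24.0% and 20.8% were under that threshold in the 3 tests, so these counts were near the background. The median TE change was 0.23 on the log2 scale over the 10 genes and 0.021 over all genes tested. Log2 TE of DNAJB9 was -1.45 and -1.53 in METTL5-WT against -0.67 and -0.82 in METTL5-KO, the widest gap of the 10. Log2 TE of HERPUD1 was 0.45 and 0.69 in METTL5-WT against 1.05 and 1.07 in METTL5-KO. In limma these were the 2 of 10 estimates whose 95% interval lay above 0, from 0.037 to 1.44 for DNAJB9 and from 0.11 to 0.88 for HERPUD1.

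TE changes across the table ran with the GC content of the coding sequence, with a rank correlation of -0.47 over 11220 genes that share the same 8 libraries. Coding GC content was 38.9% in DNAJB9, 41.3% in HSP90B1 and 44.8% in CANX, and 66.1% in SDF2L1. With the trend on GC content removed from each library, the TE change of HSP90B1 was -0.056 and that of SDF2L1 was 0.28, so both changed sign. That of DNAJB9 was 0.45, and that of CANX was 0.11, compared with 0.31 before. HERPUD1, at 52.0% GC, moved little, to 0.45. The median over the 10 genes was then 0.25, and still 0 of 10 were called.

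**Figure D3:**
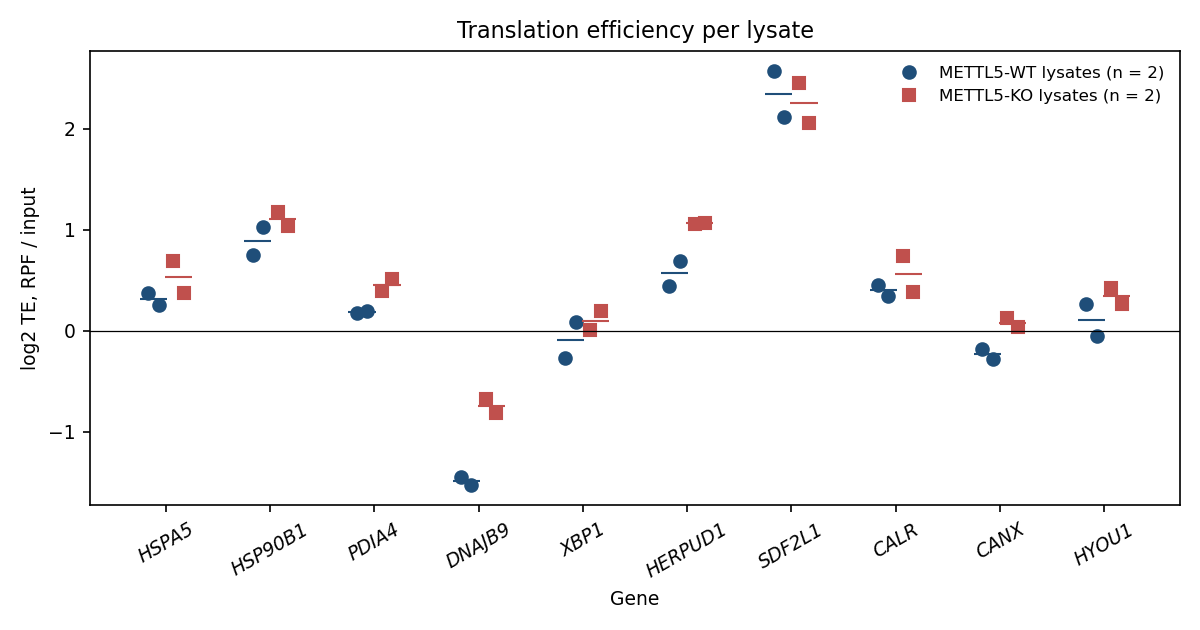
Log2 TE of the 10 genes in each lysate, with circles for METTL5-WT, squares for METTL5-KO and bars for means of 2 lysates. SDF2L1 is highest, above 2 in every lysate, and DNAJB9 is lowest, below 0 in every lysate.

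Levels between genes were compared per length, as reads per kilobase scaled to the same sum over the table in every library. Exon length was used for input and coding length for RPF. Exon length covers all annotated exons of a gene, 5062 bases for HERPUD1 with 1173 coding bases, against 3298 and 1935 for PDIA4. The order in input and its difference from RPF therefore depend on these lengths too. CALR had the highest input level, 2203 ± 57.2 (SD, n = 2) in METTL5-WT, above 99.7% of genes. CANX followed at 987 ± 30.0, HSPA5 at 674 ± 16.1 and HSP90B1 at 550 ± 44.8, and no neighbours among these 4 overlapped. XBP1 stood at 263 ± 8.98, above SDF2L1 at 196 ± 13.8 and PDIA4 at 172 ± 13.8, a pair whose nearest libraries stood at 186 and 182. HYOU1 at 71.5 ± 0.50 and HERPUD1 at 63.7 ± 1.23 came next, and DNAJB9 was lowest at 32.3 ± 0.33. The order of the means in METTL5-KO input was the same, with CALR at 1594 ± 108 and DNAJB9 at 31.2 ± 2.91, although libraries of HSPA5 and HSP90B1, and those of XBP1 and SDF2L1, overlapped there. In METTL5-WT RPF the order differed for HSP90B1, at 342 ± 27.6 above HSPA5, for SDF2L1, at 275 ± 33.8 close to HSPA5 at 290 ± 14.7, and for HERPUD1, at 70.7 ± 9.16 above PDIA4 at 57.7 ± 2.20. DNAJB9 was again lowest, at 7.44 ± 0.0090.

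The genes lie on 8 chromosomes, and each input change was set beside the 40 nearest tested genes, 20 on either side. HERPUD1 stood out, since its neighbours on chromosome 16 had a median log2 fold change of -0.47, which left -0.15 for HERPUD1 itself. For the other 9 genes the neighbours' median lay between -0.14 and 0.18. Less their neighbours' median, HSPA5 was at -0.77, PDIA4 at -0.70, HSP90B1 at -0.60, CALR at -0.56, CANX at -0.50, XBP1 at -0.40 and HYOU1 at -0.36. For these 7 genes the neighbours' median lay between -0.0038 and 0.18.

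**Figure D4:**
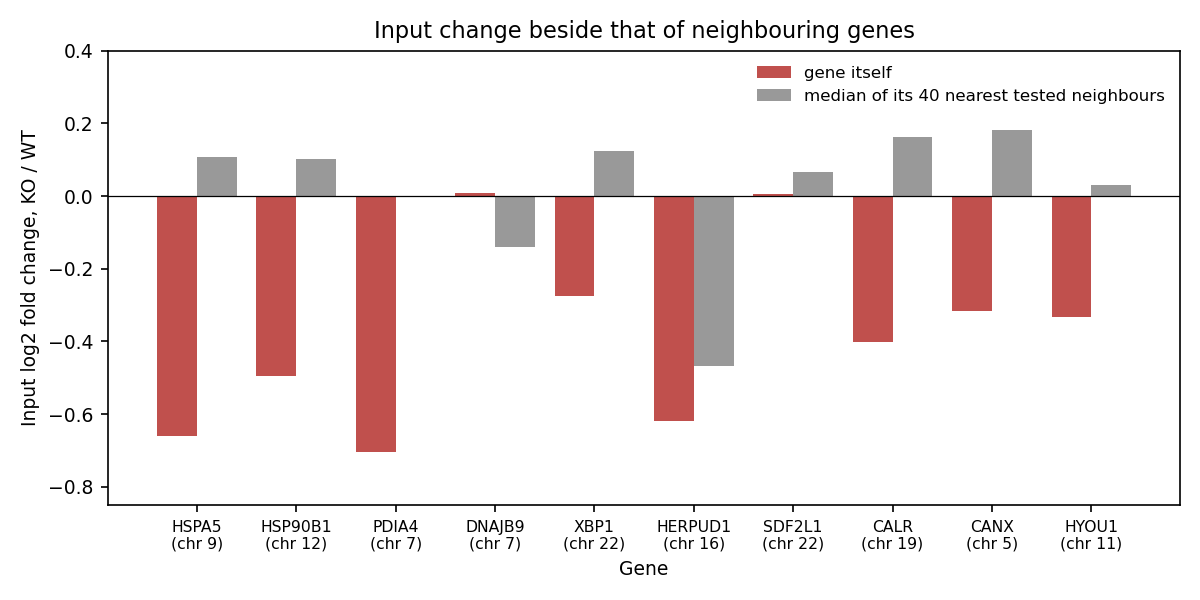
Input log2 fold change of each gene (red) beside the median of its 40 nearest tested genes on the chromosome (grey), with bars from 0. HERPUD1 on chromosome 16 is the gene whose neighbours are also far below 0.

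Genes that act with these 10, and the chaperones of the cytosol, were counted in 5 further lists, where 11.8% of all genes tested were higher in METTL5-KO in input (edgeR) and 13.8% in RPF (limma), beside the shares of lower genes given above. Of 34 other ER chaperones and folding enzymes, 12 were lower in METTL5-KO input and 0 were higher, with a median of -0.23. The 12 included PDIA3 and PDIA6, disulfide isomerases, SERPINH1, the collagen chaperone, and UGGT1, which tags misfolded glycoproteins. MANF, a small ER-resident secreted protein, had input values of 890 and 867 in METTL5-WT against 545 and 519 in METTL5-KO (log2 fold change -0.74 ± 0.12 SE, with adjusted p = 6.19e-05 by edgeR). Its RPF values were 991 and 888 against 1064 and 1240, so that footprints did not follow input. Its TE change was 1.01 ± 0.16 (SE, adjusted p = 0.0041 by limma). ERO1B, an oxidase for disulfide formation, had the lowest called input change of the list, -0.98 ± 0.35 (SE, adjusted p = 0.048 by edgeR), from only 30 to 56 counts, and DESeq2 did not call it (adjusted p = 0.14).

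In RPF 10 of these 34 genes were lower and 2 were higher. FKBP10, a prolyl isomerase for collagen, had RPF values of 2053 and 1847 in METTL5-WT against 1194 and 1212 in METTL5-KO (log2 fold change -0.69 ± 0.10 SE, with adjusted p = 0.00014 by limma). FKBP11, a related isomerase, had the lowest called change, -1.05 ± 0.36 (SE, adjusted p = 0.045 by limma), from 32 to 45 reads. DNAJC3, which encodes p58IPK, an inhibitor of PERK, rose by 0.67 ± 0.16 (SE, adjusted p = 0.0070 by limma), with RPF values of 404 and 303 against 576 and 535. It was also higher in TE, by 0.87 ± 0.21 (SE, adjusted p = 0.026 by limma). ERP29 rose in RPF by 0.54 ± 0.11 (SE, adjusted p = 0.0020 by limma). DNAJC3 and MANF were the 2 genes of the list called in TE by limma. With the GC trend removed the TE change of DNAJC3 was 0.59 and was no longer called (limma adjusted p = 0.11), and that of MANF was 0.96 (limma adjusted p = 0.0043). By edgeR on recovered reads FKBP11 was also called in TE, at -1.56 (adjusted p = 0.026), where limma gave -1.48 (adjusted p = 0.054).

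The sensors ERN1, EIF2AK3 and ATF6 showed no called change in input, RPF or TE. ERN1 had 59 and 62 input counts in METTL5-WT against 76 and 104 in METTL5-KO, and a log2 fold change of 0.21 ± 0.27 (SE, adjusted p = 0.63 by edgeR). EIF2AK3 was at -0.27 ± 0.14 (edgeR adjusted p = 0.19) and ATF6 at -0.22 ± 0.12 (edgeR adjusted p = 0.20). Of the 16 genes of sensing and signalling tested, 3 were lower in input: MBTPS1 and MBTPS2, the proteases that cleave ATF6, and PPP1R15B, a phosphatase subunit for eIF2 alpha. MBTPS1 fell by 0.62 on the log2 scale (edgeR adjusted p = 0.00034), and its neighbours on chromosome 16 had a median of -0.49.

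In RPF 5 of the 16 were lower and 1 was higher. ATF4, the transcription factor downstream of PERK whose start codon is guarded by upstream reading frames, had overlapping input values of 1569 and 1825 in METTL5-WT against 1443 and 1959 in METTL5-KO. Its RPF values were 285 and 331 in METTL5-WT against 170 and 185 in METTL5-KO. The groups were apart in RPF and not in input. The RPF change was -0.79 ± 0.20 (SE, adjusted p = 0.0080 by limma) and the TE change was -0.78 ± 0.21 (SE, adjusted p = 0.042 by limma). PPP1R15A, the stress-induced subunit of the same phosphatase, was lower in RPF by -0.85 ± 0.26 (SE, adjusted p = 0.027 by limma). EIF2S1, which encodes eIF2 alpha, was higher in RPF by 0.58 ± 0.093 (SE, adjusted p = 0.00032 by limma) and in TE by 0.68 ± 0.15 (SE, adjusted p = 0.017 by limma). With the GC trend removed, the TE change of EIF2S1 was 0.40 and the RPF change of PPP1R15A was -0.76, and neither was called (limma adjusted p = 0.068 and 0.0501). DDIT3, the factor CHOP, had 36 and 36 RPF reads in METTL5-WT against 30 and 64 in METTL5-KO, and was not called in RPF (limma adjusted p = 0.28).

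Of 29 genes of ER-associated degradation, 3 were lower and 2 higher in input, and 3 were lower and 4 higher in RPF, near the shares of all genes. OS9, a lectin, was lower in input, with a log2 change of -0.72 ± 0.14 (SE, adjusted p = 0.00072 by edgeR) and neighbours at -0.55. NGLY1 and AUP1 were higher in input (edgeR adjusted p = 0.041 and 0.036), where DESeq2 called AUP1 (adjusted p = 0.043) and not NGLY1 (adjusted p = 0.077). Both were higher in RPF, with changes of 0.80 ± 0.14 and 0.65 ± 0.12 (SE, adjusted p = 0.00076 and 0.0012 by limma). None of the 29 was called in TE by limma or by edgeR on recovered reads.

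The genes of translocation and N-glycosylation, which here include the KDEL receptors that return HSPA5 and its kin to the ER, moved in both directions. In input 7 of 33 were lower and 2 were higher, and in RPF 6 of 32 were lower and 13 were higher. RPN2, a subunit of oligosaccharyltransferase, had input values of 4020 and 3830 in METTL5-WT against 2115 and 2292 in METTL5-KO (log2 fold change -0.85 ± 0.11 SE, with adjusted p = 7.39e-06 by edgeR), with neighbours on chromosome 20 at -0.52. SEC61G, a subunit of the translocon, had RPF values of 1991 and 1901 against 3564 and 3366 (log2 fold change 0.83 ± 0.093 SE, with adjusted p = 9.22e-06 by limma). In TE 5 were higher and 0 lower by limma, with OSTC at 1.04 ± 0.19 and SPCS3 at 0.89 ± 0.17 (SE, adjusted p = 0.0070 and 0.0089 by limma).

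The chaperones of the cytosol, which serve proteins outside the ER, served as the comparison list. In input 2 of 22 were lower and 2 were higher, with a median of -0.023 against -0.37 for the 10 ER genes. In RPF 10 of 22 were higher and 2 were lower, with a median of 0.26 against -0.10. Median coding GC content was 48.5% in the cytosolic list and 52.4% in the 10 ER genes. The part of GC content in this gap was not tested. HSPB1 was higher in input, by 0.57 ± 0.12 (SE, adjusted p = 0.0012 by edgeR). STIP1, a cochaperone that joins Hsp70 to Hsp90, had RPF values of 5402 and 5954 in METTL5-WT against 9421 and 8740 in METTL5-KO. Its RPF change was 0.68 ± 0.092 (SE, adjusted p = 6.77e-05 by limma). DNAJA2 was the lowest in input, at -0.83 ± 0.12 (SE, adjusted p = 1.63e-05 by edgeR), with neighbours on chromosome 16 at -0.49. The other lower gene in input was HSP90AA1, at -0.47 ± 0.11 (SE, adjusted p = 0.0041 by edgeR). The share of RPF reads on the cytosolic list was 0.998% ± 0.021 (SD, n = 2) in METTL5-WT, compared with 1.09% ± 0.037 in METTL5-KO (SD, n = 2). This was in the direction opposite to that of the 10 ER genes. The input share of the cytosolic list moved in the same direction as theirs, from 0.842% ± 0.027 in METTL5-WT to 0.755% ± 0.033 in METTL5-KO (SD, n = 2). The difference between the lists was not tested.

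**Figure D5:**
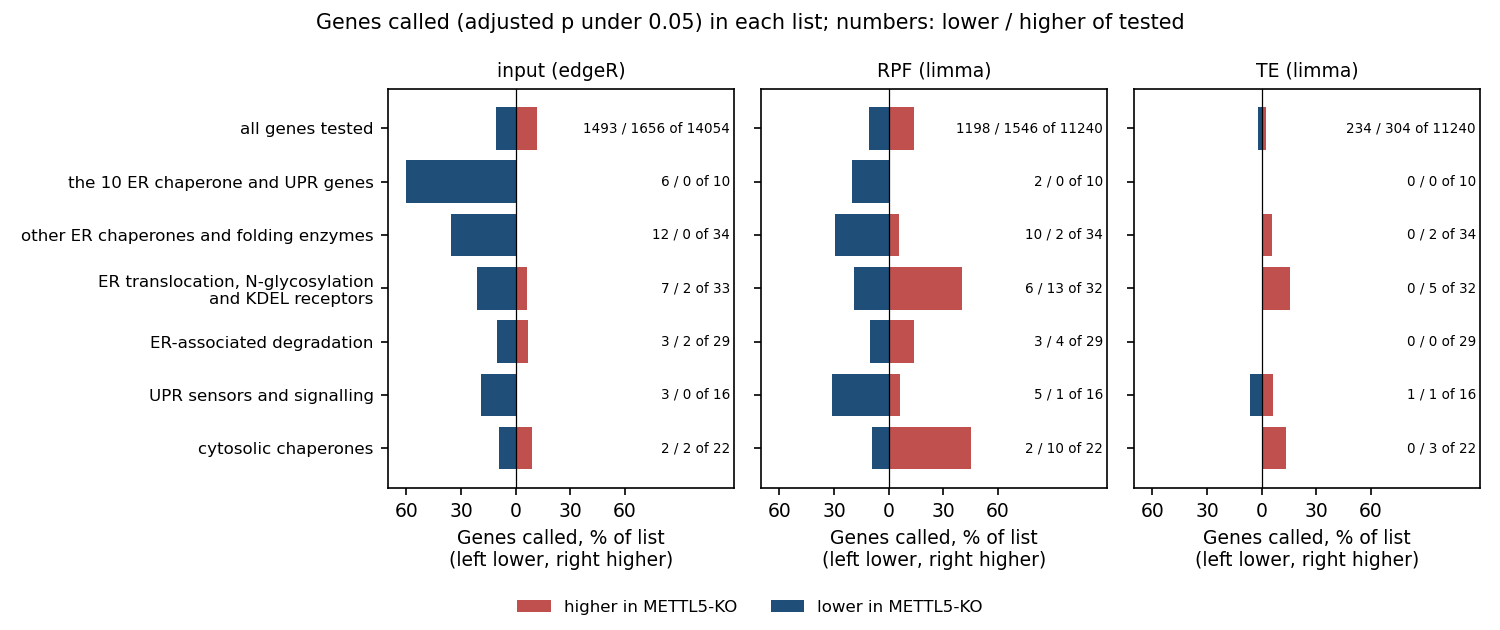
Share of each list called lower (left, blue) or higher (right, red) in METTL5-KO in input, RPF and TE, in percent of the genes tested, with counts of lower and higher genes beside the bars. The 10 ER genes have calls to the left alone in input and RPF, and the cytosolic chaperones have 10 of 22 to the right in RPF.

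Fewer of the 10 genes were called in input when either METTL5-WT library was left out. Such a fit has 1 METTL5-WT library and takes its spread from the METTL5-KO pair alone. Input changes without METTL5-WT replicate 1 were -0.63 for HSPA5, -0.62 for PDIA4 and -0.60 for HERPUD1. HSP90B1 was then at -0.41, CALR at -0.37 and HYOU1 at -0.34. Without METTL5-WT replicate 2 the changes were -0.69, -0.79 and -0.64 for HSPA5, PDIA4 and HERPUD1. HSP90B1 then stood at -0.58, CALR at -0.43 and HYOU1 at -0.33. In RPF without METTL5-KO replicate 2, HSPA5 was at -0.36 and PDIA4 at -0.37, and neither was called. Limma without a variance trend called 0 of 10 in RPF.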

How the data were processed

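Input and RPF libraries from cells labelled HepG2 were compared between genotypes, grouped and numbered by sample title. For input, the authors trimmed reads, aligned them to hg38 with STAR 2.7.3a (per the submitters' processing notes) and deposited raw counts per gene from strand-specific featureCounts. For RPF, the authors kept fragments of 25 to 34 bases, removed ribosomal RNA reads and used RiboToolkit. The signal values deposited by the authors in the TE table are called RPKM there. They were whole reads times 1 constant per library (100% of values, tolerance 0.05) and were read as reads scaled by size factor. The authors' own fold changes and p-values of TE were not used. The table holds genes with at least 1 read in every library.

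Input counts (60718 genes, 3 broken lines left out) went through edgeR 4.0.16 with TMM scaling, filterByExpr and its quasi-likelihood test. For RPF (4 libraries) and for TE (genotype by library type, 8 libraries), limma 3.58.1 with a variance trend was run on log2(value + 1) of 11240 genes with a mean of at least 1. This scale understates changes of low genes. The plan had taken the unit as RPKM, so edgeR on recovered reads was added beside limma, and DESeq2 1.42.0 was an alternative. P-values are two-sided, Benjamini-Hochberg adjusted over all genes tested, and called under 0.05. Exact permutation of 2 against 2 samples cannot go below p = 0.333. Models were tested on simulated data. SE of edgeR was approximated from its F statistic. GENCODE 44 gave coding length and GC content (99.8% of genes). R 4.3.3 and Python 3.11.15 were used.

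Deviations of same-numbered WT and KO libraries correlated at 0.039 in input and -0.0021 in RPF, so numbers were not taken as pairs. The members, lists and tests were chosen with earlier results of these data known. Named genes were all 10 members, ERN1, EIF2AK3, ATF6, ATF4 and DDIT3, and from each list the 2 largest called rises and falls per comparison, of which not all are described. COL3A1, COL1A1, DCN, PDGFRB, MBTPS2, PDIA3, PDIA6, SERPINH1 and UGGT1 were named after their values were seen. Small RNAs, a pseudogene or lncRNAs overlap HSP90B1, CALR, CANX and HERPUD1 on the same strand, so their reads may be split or shared.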

Additional observations from a re-analysis of the deposited data

How the results depend on the processing

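Over the alternatives run, the count of the 10 genes called in input was 6 to 7 with all libraries and ranged from 2 to 8 when a library was left out. The median input change lay between -0.33 and -0.39, except less the median of neighbouring genes (-0.45). In RPF 4 genes were called by edgeR on recovered reads, with the GC trend removed, with quantile normalization and with scaling by total reads alone (chosen after seeing the data), against 2 in limma, and 0 in limma without the variance trend. Leaving out a library gave 0 to 3. The median RPF change was -0.19 with the length trend removed, -0.20 with quantile normalization and -0.26 with scaling by total reads alone, and -0.12 to -0.22 with a library left out. TE calls stayed at 0 in every alternative. The median TE change was 0.13 with quantile normalization and 0.21 to 0.33 with a lysate left out. The cause was not tested for any of these.

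Among single genes that were not called, some estimates changed sign. CANX in RPF was at -0.020 with DESeq2, -0.11 with the GC trend removed, -0.023 with edgeR, -0.22 with quantile normalization and -0.15 with total reads alone. HSP90B1 in TE was at -0.056 with the GC trend removed, with or without the lysate block, and at -0.017 with quantile normalization. SDF2L1 was at 0.076 in RPF, 0.28 in TE (also with the lysate block) and -0.21 in input with the GC trend removed, at -0.00074 in input by limma and at -0.0099 with the replicate block. HYOU1 in RPF was at 0.013 with the length trend removed. With a library or lysate left out, CANX RPF ranged from -0.11 to 0.11, HYOU1 RPF from -0.23 to 0.070, SDF2L1 RPF from -0.24 to 0.073, CALR TE from -0.022 to 0.34, SDF2L1 TE from -0.31 to 0.15, SDF2L1 input from -0.25 to 0.23, DNAJB9 input from -0.027 to 0.052 and XBP1 RPF from -0.21 to 0.076.

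The replicate number as a block (replicate block) gave 6 genes called in input, 3 in RPF and 0 in TE, with HSP90B1 added in RPF (limma adjusted p = 0.031). The numbers were not shown to pair the samples. A replicate block on the lysate called 0 in TE. Over all genes, TE calls were 538 in limma, 837 in DESeq2, 298 with the GC trend removed, 1 without the variance trend and 4 to 266 with a lysate left out. RPF calls were 2744 in limma, 303 without the variance trend and 1467 to 3211 with a library left out, and input calls were 3149 and 1257 to 5490. Among the 10 genes DNAJB9 had the fewest METTL5-WT footprints, 22 and 25 reads.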
